A study of Mus musculus with 7 samples.

Results

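The YAP-TEAD group described here held 10 genes, namely the coactivators Yap1 and Wwtr1 (the gene of TAZ), the transcription factors Tead1, Tead2 and Tead4, and the target genes Ankrd1, Ctgf, Cyr61, Amotl2 and Lats2. They were chosen by symbol, and all 10 were found among the 11642 rows of the RPKM table (reads scaled to the length of the gene and the size of the library). Lats2 shared its row with the overlapping gene Xpo4, so the values given for Lats2 are those of both genes and cannot be divided between them. RNA was measured in C2C12 cells, a single line of mouse myoblasts that forms myotubes when serum is withdrawn, on day 2 of differentiation. 2 samples had received a scramble siRNA (si-SCR) and 2 had received 1 siRNA against lnc-SMaRT (si-SMaRT), a cytoplasmic long non-coding RNA of skeletal muscle. RNA recovered from C2C12 cells by pull-down with probes against lnc-SMaRT or against LacZ was sequenced in 1 library each.

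The Hippo pathway is a kinase cascade in which MST kinases activate LATS kinases, and LATS kinases phosphorylate YAP and TAZ and keep them out of the nucleus. YAP and TAZ do not bind DNA themselves but act through TEAD factors, which recognise the MCAT element (CATTCC, or GGAATG on the other strand). In myoblasts YAP is known to favour proliferation over differentiation, and TEAD factors also occupy the promoters of contractile genes.

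To look for the letters of the MCAT element, the promoters of the members were taken from RefSeq on GRCm38.p6. They ran from 250 bases before to 50 bases after the transcription start. A promoter was found for 7 of the 10 members, under the current symbol Ccn1 in the case of Cyr61. Ctgf, Tead1 and Tead4 were not among them. The 4 promoters printed here are those of Cyr61, Amotl2, Ankrd1 and Yap1, each with a TEAD motif before the start. They are written 5′ to 3′ on the strand of the gene, with GGAATG and CATTCC in capitals.
Cyr61, chr3:145649936-145650235, minus strand: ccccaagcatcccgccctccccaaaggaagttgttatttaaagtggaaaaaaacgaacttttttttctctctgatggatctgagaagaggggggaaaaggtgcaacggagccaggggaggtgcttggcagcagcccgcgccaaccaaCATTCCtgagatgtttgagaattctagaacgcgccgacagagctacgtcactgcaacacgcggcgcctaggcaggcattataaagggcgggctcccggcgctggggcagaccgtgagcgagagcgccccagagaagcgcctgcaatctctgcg
Amotl2, chr9:102717554-102717853, plus strand: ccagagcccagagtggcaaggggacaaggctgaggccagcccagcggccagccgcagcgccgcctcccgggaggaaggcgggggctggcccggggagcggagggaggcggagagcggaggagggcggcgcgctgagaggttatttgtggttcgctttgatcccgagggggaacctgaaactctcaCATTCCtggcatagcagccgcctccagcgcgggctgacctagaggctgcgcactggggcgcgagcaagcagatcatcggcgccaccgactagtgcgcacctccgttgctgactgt
Ankrd1, chr19:36119795-36120094, minus strand: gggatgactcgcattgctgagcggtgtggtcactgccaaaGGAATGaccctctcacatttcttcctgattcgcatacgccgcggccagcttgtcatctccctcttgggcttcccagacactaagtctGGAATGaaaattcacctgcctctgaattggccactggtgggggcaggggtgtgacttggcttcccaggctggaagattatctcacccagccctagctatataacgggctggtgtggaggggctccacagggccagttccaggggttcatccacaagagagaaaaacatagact
Yap1, chr9:8004547-8004846, minus strand: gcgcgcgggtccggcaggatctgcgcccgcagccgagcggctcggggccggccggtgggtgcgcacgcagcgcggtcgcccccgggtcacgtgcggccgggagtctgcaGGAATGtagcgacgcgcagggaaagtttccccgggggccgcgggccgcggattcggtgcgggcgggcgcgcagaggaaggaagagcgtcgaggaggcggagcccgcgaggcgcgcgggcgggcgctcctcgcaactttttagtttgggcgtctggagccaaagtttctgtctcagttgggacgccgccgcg

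The motif began 103 bases before the start in Cyr61, 65 bases before it in Amotl2 and 141 bases before it in Yap1. Ankrd1 held 2 matches, 210 and 123 bases before the start. A match was also found in both promoters of Wwtr1, which overlap each other, and 4 bases after the start base in 1 of the 2 promoters of Lats2. The promoter of Tead2 held none. In all, 7 of the 9 promoters, from 6 of the 7 members, held the motif. Of all 32851 mouse promoters of this length, 14.7% held it, and 1.36% held it more than once. Of 11 other YAP/TAZ target genes with a promoter, 3 held it (Axl, Crim1 and Ptpn14). Neither the AP-1 motif (TGANTCA, found in 7.81% of all promoters) nor the CArG box bound by SRF (found in 1.63%) was present in any of the 9 promoters of the members. These matches describe the letters of this window and do not show binding.

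The targeted RNA was checked first. Lnc-SMaRT was at 19.1 and 15.9 RPKM in si-SCR and at 2.88 and 3.65 RPKM in si-SMaRT, which left 0.187 of its mean level (log2 difference −2.39, limma adjusted p = 0.000882). The effective library sizes were between 11291255 and 14312935 reads. The samples also differed in ways that the groups do not explain. Across 10849 genes, the log2 difference of si-SMaRT 2 from si-SMaRT 1 had a Spearman rho of −0.85 with the GC content of the gene, against 0.36 for si-SCR 2 from si-SCR 1. Genes are not independent replicates, and the rho is given without a test. For rows with a known GC content, differences were therefore also computed after the trend with GC content had been removed from each sample. The row of lnc-SMaRT had no GC content and was not among them. The 6 markers of differentiating muscle were all present, with a summed level of 6347 and 7088 RPKM in si-SCR and of 5432 and 3244 RPKM in si-SMaRT. Acta1 alone was at 2778 and 3240 RPKM in si-SCR and at 2553 and 1274 RPKM in si-SMaRT. Myod1 differed from the sum, at 54.8 and 70.1 RPKM in si-SCR and 95.9 and 57.7 RPKM in si-SMaRT, and with the GC trend removed at 64.7 and 74.5 against 92.8 and 94.6, higher without overlap (adjusted p = 0.116 by limma). Myf5 was the 1 of 2 markers of undifferentiated myoblasts that was measured, at 29.6 and 22.2 RPKM in si-SCR and 18.8 and 34.8 RPKM in si-SMaRT. The 3 fibroblast markers Pdgfra, Col1a1 and Dcn summed to 106 and 111 RPKM in si-SCR and to 208 and 191 RPKM in si-SMaRT, with Pdgfra between 0.584 and 0.723 RPKM in all 4 samples. Dcn was at 65.2 and 55.7 RPKM in si-SCR and at 102 and 148 RPKM in si-SMaRT. Col1a1 overlapped between the groups, at 39.98 and 54.9 RPKM against 105 and 41.6 RPKM. With the GC trend removed Col1a1 was at 45.5 and 56.7 against 101 and 64.0, higher without overlap (adjusted p = 0.118 by limma). Of 11 markers of smooth muscle, endothelium, blood and fat cells, 0 were among the rows. All 4 samples came from the single line C2C12, so the fibroblast markers are read as levels of genes and not as a share of fibroblasts. In bulk RNA, a change in the share of cells in a given state of differentiation and a change of RNA per cell cannot be told apart. The part of these shifts in the differences described here was not tested.

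Of the 10 YAP-TEAD genes, 0 passed the threshold of an adjusted p of 0.05 in the comparison of si-SMaRT with si-SCR by limma. This stood against 56 of 11086 genes in all (0.505%), with 0.18% of all genes called higher in si-SMaRT. At an unadjusted p under 0.05 there were 2, Cyr61 and Ctgf, where 9.09% of all genes had such a p. The values of si-SCR and si-SMaRT did not overlap for 9 of the 10 genes, where they did not overlap for 40.7% of all genes. Of these 9, 7 were higher in si-SMaRT (20.2% of all genes) and 2, Tead2 and Tead4, were lower (20.4%). The median log2 difference of the 10 genes was 0.44, and that of all genes was 0.02. The 5 target genes were all higher in si-SMaRT without overlap and had a median log2 difference of 0.59. A test with voom on reads worked out from the RPKM values also called 0 of the 10 genes (0.956% of all genes). With the GC trend removed, limma called 3 of the 10 genes, Ctgf, Cyr61 and Amotl2, all higher in si-SMaRT, where it called 4.4% of all genes and 1.8% as higher.

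**Figure D1:**
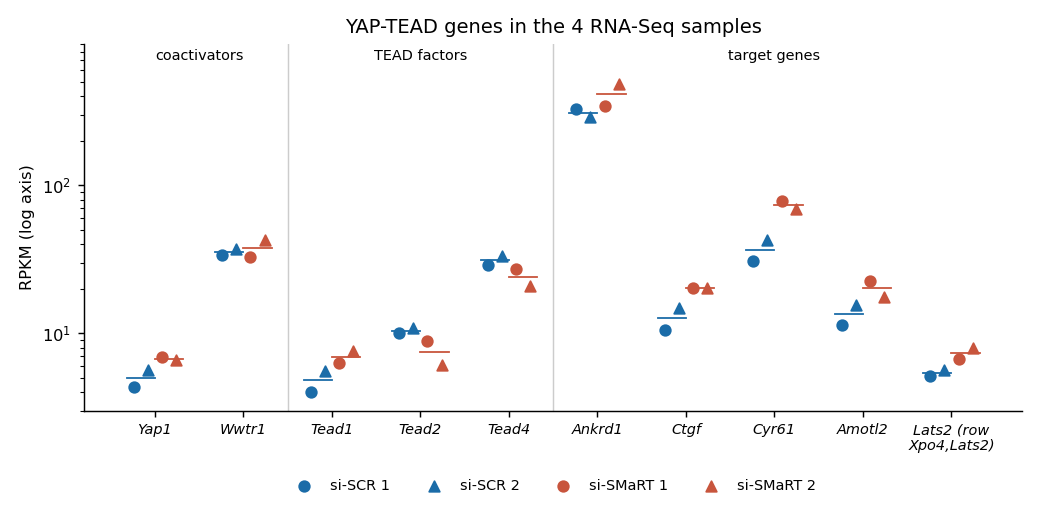
RPKM on a log axis of the 10 YAP-TEAD genes in the 2 si-SCR samples (blue) and the 2 si-SMaRT samples (red), with circles for replicate 1, triangles for replicate 2 and short lines for the group means. The red points lie above the blue ones for the 5 target genes, Yap1 and Tead1, below them for Tead2 and Tead4, and among them for Wwtr1.

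In si-SCR, the members were spread over a wide range of levels. Ankrd1, a muscle ankyrin repeat protein of the sarcomere and nucleus, was the most abundant at 308 ± 27.4 RPKM (SD, n = 2), above 98.5% of all rows. Cyr61 followed at 36.6 ± 8.49 RPKM, Wwtr1 at 35.3 ± 2.24 RPKM and Tead4 at 31.1 ± 3.09 RPKM. Cyr61 and Wwtr1 overlapped, and the values of Wwtr1 and Tead4 did not. Amotl2 at 13.4 ± 2.95 RPKM, Ctgf at 12.6 ± 2.97 RPKM and Tead2 at 10.4 ± 0.602 RPKM formed a run in which each overlapped the next. The row of Lats2 at 5.39 ± 0.34 RPKM, Yap1 at 4.99 ± 0.968 RPKM and Tead1 at 4.80 ± 1.1 RPKM came last and overlapped in the same way. Between 380 and 2912 reads per sample stood behind the values of Yap1, Wwtr1, Ctgf and Amotl2, whose gene lengths were those of the gene model. The reads bear at most on counting error and not on the spread between samples. They carry no molecular identifiers, so copies of a molecule cannot be told from separate molecules.

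The coactivator Yap1 (chromosome 9, 7931999 to 8004596, minus strand) was at 4.30 and 5.67 RPKM in si-SCR and at 6.93 and 6.55 RPKM in si-SMaRT. Both si-SMaRT samples were above both si-SCR samples, yet the difference did not pass the test (log2 difference 0.44 ± 0.28 (SE), 95% interval −0.15 to 1.03, adjusted p = 0.694 by limma). The groups overlapped with the GC trend removed, at 4.19 and 5.73 against 7.18 and 5.66 on the RPKM scale. Wwtr1 (chromosome 3, 57455649 to 57575910, minus strand), which encodes the coactivator TAZ, was at 33.7 and 36.9 RPKM in si-SCR and at 32.6 and 42.6 RPKM in si-SMaRT. The 2 groups overlapped, and the interval of the log2 difference ran from −0.48 to 0.64 (adjusted p = 0.961 by limma). Its direction was not fixed, as the log2 difference was 0.08 on the deposited values and −0.03 with the GC trend removed. Wwtr1 exceeded Yap1 in every sample, with a ratio of RPKM of 7.83 and 6.50 in si-SCR and of 4.71 and 6.50 in si-SMaRT. On these deposited values the ratio overlapped between the groups (exact permutation test, two-sided, p = 0.667). The smallest p that 2 samples against 2 allow is 0.333. The overlap rested on a near tie, 6.49762 in si-SCR 2 and 6.49838 in si-SMaRT 2. With the GC trend removed, the ratio was lower in both si-SMaRT samples than in both si-SCR samples, without overlap. No test was run on the ratio in that setting.

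The TEAD factors differed in direction. Tead1 (chromosome 7, 112679318 to 112906807, plus strand) was at 4.02 and 5.58 RPKM in si-SCR and at 6.28 and 7.54 RPKM in si-SMaRT. Tead2 (chromosome 7, 45215753 to 45233644, plus strand) was at 9.97 and 10.8 RPKM in si-SCR and at 8.92 and 6.12 RPKM in si-SMaRT. Tead4 (chromosome 6, 128224288 to 128300823, minus strand), a factor that MyoD induces during muscle differentiation, was at 28.9 and 33.3 RPKM in si-SCR and at 27.1 and 20.8 RPKM in si-SMaRT. Tead1 was thus higher in both si-SMaRT samples, and Tead2 and Tead4 were lower in both. The log2 differences of 0.53, −0.49 and −0.38 had adjusted p values of 0.610, 0.651 and 0.735 by limma. With the GC trend removed they were 0.48, −0.34 and −0.24, and the groups still did not overlap for any of the 3. Without si-SMaRT 2 the log2 differences of Tead2 and Tead4 shrank to −0.22 and −0.19. Without si-SMaRT 1 all 3 factors passed the threshold, at log2 differences of 0.66, −0.75 and −0.57 (adjusted p = 0.0199, 0.00396 and 0.0223 by limma). In that setting 26.2% of all genes were called, and the lone sample was assumed to vary like the others. None of the 3 passed when another sample was left out, and Tead1 was at 0.30 without si-SCR 1.

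Tead4 made up 64.0% and 63.0% of the summed RPKM of Tead1 to Tead4 in si-SCR and 59.5% and 57.0% in si-SMaRT. Tead1 made up 8.90% and 10.5% in si-SCR and 13.8% and 20.6% in si-SMaRT. The share of Tead4 was thus lower and that of Tead1 higher in both si-SMaRT samples. Tead3, which is outside the 10 genes, took between 5.01% and 7.20% in the 4 samples. The ratio of Tead4 to Tead1 was 7.19 and 5.97 in si-SCR and 4.32 and 2.76 in si-SMaRT. Its groups did not overlap, and the exact two-sided permutation p of 0.333 is the smallest that this design allows. The ratio was 7.73 and 5.74 against 3.84 and 4.20 once the GC trend had been removed, so the order of the groups was kept and the gap between the si-SMaRT samples became smaller. On the deposited values the summed RPKM of the 4 factors overlapped, at 45.2 and 52.9 in si-SCR and 45.6 and 36.6 in si-SMaRT. With the GC trend removed, Tead4 was at 31.0 and 32.8 against 25.2 and 28.9. Tead2 was then at 10.7 and 10.7 against 8.30 and 8.58. Tead1 was at 4.01 and 5.71 against 6.57 and 6.89, and Tead3 at 2.69 and 3.37 against 3.17 and 3.48. The sum of these values was lower in both si-SMaRT samples than in both si-SCR samples, by a narrow margin.

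**Figure D2:**
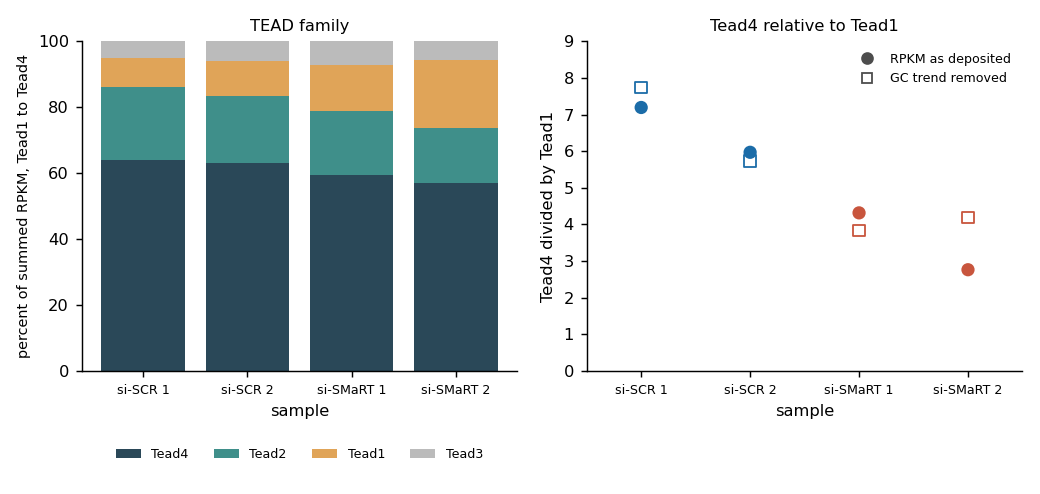
Left, share of Tead1 to Tead4 in their summed RPKM in each sample, as stacked bars in percent. Right, level of Tead4 divided by that of Tead1 in each sample (si-SCR blue, si-SMaRT red), from the deposited RPKM (filled circles) and with the GC trend removed (open squares), where all si-SMaRT points lie below 5 and all si-SCR points above 5.

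Among the targets, Cyr61 (chromosome 3, 145646976 to 145649981, minus strand) showed the widest gap between the groups. It encodes a secreted matricellular protein of the CCN family and is a direct target of YAP and TEAD. Cyr61 was at 30.6 and 42.6 RPKM in si-SCR and at 78.6 and 68.8 RPKM in si-SMaRT, so the mean was 2.01 times as high. Both si-SMaRT samples lay well above both si-SCR samples, as did the sum of the 3 fibroblast markers. Of these markers, Dcn alone was higher without overlap on the deposited values, and Col1a1 was too with the GC trend removed. The log2 difference was 1.02 ± 0.27 (SE), with a 95% interval from 0.45 to 1.60, an unadjusted p of 0.00161 and an adjusted p of 0.137 by limma. The difference was 1.11 with the GC trend removed and passed the threshold (adjusted p = 0.0114 by limma). It also passed when si-SMaRT 1 or si-SMaRT 2 was left out, at log2 differences of 0.93 (adjusted p = 9.97e-05 by limma) and 1.12 (adjusted p = 7.80e-06 by limma), where 26.2% and 8.49% of all genes were called. It did not pass without si-SCR 1 (0.79) or without si-SCR 2 (1.26), each with an adjusted p of 1.00 by limma, where 0.216% and 0.271% of all genes were called.

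Ctgf (chromosome 10, 24595442 to 24598683, plus strand), the CCN family member most often read out for YAP activity, was at 10.5 and 14.7 RPKM in si-SCR and at 20.1 and 20.3 RPKM in si-SMaRT. The si-SMaRT samples were nearly equal and both above si-SCR, with a mean 1.60 times as high. The log2 difference of 0.70 ± 0.27 (SE, 95% interval 0.12 to 1.27) had an unadjusted p of 0.0211 and an adjusted p of 0.395 by limma. It was 0.74 with the GC trend removed and passed (adjusted p = 0.0490 by limma). Without si-SMaRT 1 or si-SMaRT 2 it was 0.71 and 0.69 and passed (adjusted p = 0.00487 and 0.0185 by limma), in settings that called 26.2% and 8.49% of all genes. Without si-SCR 1 it was 0.46 and without si-SCR 2 it was 0.94, and neither passed (adjusted p = 1.00 and 1.00 by limma). Cyr61 exceeded Ctgf in every sample, by a ratio of RPKM of 2.92 and 2.90 in si-SCR and of 3.92 and 3.39 in si-SMaRT, without overlap (exact permutation test, two-sided, p = 0.333, the smallest possible).

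Amotl2 (chromosome 9, 102716672 to 102733418, plus strand) encodes an angiomotin, a junction protein that binds YAP and holds it back, and is itself a YAP target. It was at 11.4 and 15.5 RPKM in si-SCR and at 22.6 and 17.7 RPKM in si-SMaRT. The lowest si-SMaRT sample was only slightly above the highest si-SCR sample, and the log2 difference was 0.59 ± 0.28 (SE, 95% interval −0.0032 to 1.17, adjusted p = 0.556 by limma). Its GC content of 55.9% lay above the median of 49.1% of all genes. With the GC trend removed the si-SCR values were 12.1 and 15.2 and the si-SMaRT values 20.9 and 24.1 on the RPKM scale, so the gap widened and the difference of 0.73 passed the threshold (adjusted p = 0.0410 by limma). Leaving out 1 sample gave a pass in 1 of 4 cases, without si-SMaRT 2 (0.76, adjusted p = 0.00708 by limma, with 8.49% of all genes called). It did not pass without si-SMaRT 1 (0.41, adjusted p = 0.124 by limma), without si-SCR 1 (0.36) or without si-SCR 2 (0.81), the last 2 with an adjusted p of 1.00.

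Ankrd1 (chromosome 19, 36111961 to 36120099, minus strand) was at 327 and 289 RPKM in si-SCR and at 340 and 483 RPKM in si-SMaRT. The groups did not overlap, but si-SMaRT 1 was only slightly above si-SCR 1. The log2 difference of 0.40 ± 0.29 (SE, 95% interval −0.20 to 1.01, adjusted p = 0.745 by limma) was 0.65 without si-SMaRT 1 (adjusted p = 0.0459 by limma) and 0.15 without si-SMaRT 2 (adjusted p = 0.767 by limma). It was 0.49 and 0.31 without si-SCR 1 and si-SCR 2 and did not pass. The row of Xpo4 and Lats2 (Lats2 on chromosome 14, 57689662 to 57758388, minus strand) was at 5.15 and 5.63 RPKM in si-SCR and at 6.74 and 7.90 RPKM in si-SMaRT. LATS2 is the kinase that closes a feedback loop on YAP, and XPO4 is a nuclear transport receptor. Both si-SMaRT values were above both si-SCR values, with a log2 difference of 0.43 ± 0.27 (SE) and an adjusted p of 0.691 by limma. With the GC trend removed, the log2 differences of Ankrd1 and of the row of Lats2 were 0.32 and 0.34. Neither passed (adjusted p = 0.288 and 0.207 by limma).

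**Figure D3:**
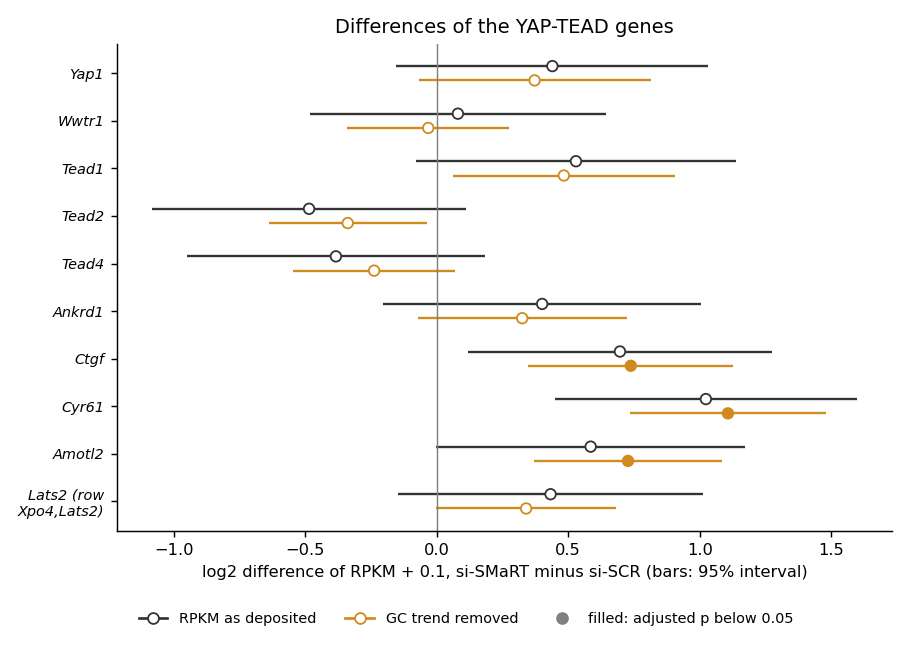
Log2 difference of RPKM + 0.1 between si-SMaRT and si-SCR for each of the 10 genes, with its 95% interval, from the deposited values (black) and with the GC trend of each sample removed (orange). Filled points have an adjusted p below 0.05 and are those of Ctgf, Cyr61 and Amotl2 with the GC trend removed.

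The 3 genes with the profile most like that of each of the 3 best known targets were looked up among 6884 genes with a mean of at least 5 RPKM, by the root mean square difference of their centred log2 values over the 4 samples. For Ctgf these were Prrc2c (0.0241), Cited2 (0.0397) and Efnb2 (0.0419). For Cyr61 they were Nid1 (0.0755), Robo1 (0.0756) and Adam12 (0.0850), and Ctgf itself came at rank 24 (0.179) and Amotl2 at rank 64 (0.226). For Ankrd1 they were Prim1 (0.0132), Hif1a (0.0191) and Ccna2 (0.0201). Ankrd1 was at a distance of 0.326 from Ctgf and of 0.460 from Cyr61. Seen from Ankrd1 these stood at ranks 3484 and 5039, and Ankrd1 stood at rank 1373 for Ctgf and 1296 for Cyr61. Among the factors and coactivators, Tead1 and Yap1 stood at ranks 46 and 82 for Ctgf, whereas Wwtr1 stood at rank 1817, Tead4 at 5329 and Tead2 at 5993. For Cyr61, Tead1 and Yap1 stood at ranks 188 and 193, and for Ankrd1 at ranks 2388 and 2946. The distances were taken on the deposited values, without removal of the GC trend, and the part of GC content in them was not tested. With 4 samples a small distance is a description only.

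The rest of the pathway was read from 7 lists with 62 tested genes, each counted once. Of these, 1 passed the threshold (F3, with 0.505% of all genes called), 14 had an unadjusted p under 0.05 (9.09% of all genes), voom called 2 (0.956%), and 4 passed with the GC trend removed (4.4%). Of all genes, 20.2% were higher and 20.4% lower in si-SMaRT without overlap, and the counts of each list stand beside these shares. In the kinase cascade, 0 of 13 tested genes passed by limma and 2 had an unadjusted p under 0.05. There 5 were higher in si-SMaRT without overlap and 0 lower. The median log2 difference of the cascade was 0.26, beside 0.02 for all genes, and with the GC trend removed 0.15, beside −0.0017. Its lowest p was that of Lats1, a kinase that phosphorylates YAP, at 8.25 and 9.44 RPKM in si-SCR and 12.6 and 18.7 RPKM in si-SMaRT. The log2 difference of Lats1 was 0.79 (adjusted p = 0.319 by limma), or 0.66 with the GC trend removed, which passed (adjusted p = 0.0449 by limma). The kinase adaptor Mob1b (log2 difference 0.64) and the scaffold Sav1 (0.52) came next, with adjusted p of 0.547 and 0.605 by limma. With the GC trend removed their log2 differences were 0.44 and 0.38, and neither passed (adjusted p = 0.164 and 0.165 by limma).

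Of the upstream and junction regulators, 0 of 10 tested genes passed by limma, 2 had an unadjusted p under 0.05, 3 were higher without overlap and 0 lower, and the median log2 difference was 0.11. Frmd6, a FERM protein upstream of the cascade, was at 9.50 and 11.2 RPKM in si-SCR and at 17.5 and 15.6 RPKM in si-SMaRT. Its log2 difference of 0.68 did not pass (adjusted p = 0.396 by limma) and that of 0.69 with the GC trend removed did (adjusted p = 0.0361 by limma). The protocadherin Fat1 (log2 difference 0.65) and Wwc2 (0.38) had adjusted p of 0.511 and 0.745 by limma. Fat4 was below the minimum level, and Wwc1 and Dchs1 were not analysed. Of the TEAD partners, 0 of 4 passed by limma, 1 had an unadjusted p under 0.05 and the median was 0.43. Vgll3, a vestigial-like cofactor that competes with YAP for TEAD, was at 17.3 and 21.3 RPKM in si-SCR and at 26.7 and 34.6 RPKM in si-SMaRT (log2 difference 0.66, adjusted p = 0.439 by limma). The cofactors Vgll2, of the muscle lineage, and Vgll4, a repressor, had log2 differences of 0.64 and 0.22, and Vgll1 was not analysed.

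Of 17 other YAP/TAZ target genes, Nt5e was below the minimum level. Of the 16 tested, 1 passed and was higher, 5 had an unadjusted p under 0.05, 6 were higher without overlap and 2 lower, and the median log2 difference was 0.23. The gene that passed was F3, which encodes tissue factor, the membrane receptor that starts blood coagulation. F3 was at 5.01 and 4.34 RPKM in si-SCR and rose to 11.3 and 11.2 RPKM in si-SMaRT, with a log2 difference of 1.26 ± 0.27 (SE) and an adjusted p of 0.0494 by limma. The call was close to the threshold and was lost in 7 of 14 alternatives, among them without si-SCR 1 (log2 difference 1.36) and without si-SCR 2 (1.16), where the adjusted p was 1.00 by limma. With the GC trend removed it was 1.2 (adjusted p = 0.00590 by limma). Crim1, a transmembrane protein, was at 0.303 and 0.437 RPKM in si-SCR and at 0.813 and 1.04 RPKM in si-SMaRT (log2 difference 1.13, adjusted p = 0.243 by limma). Ptpn14, a phosphatase that binds YAP, had a log2 difference of 0.74 (adjusted p = 0.430 by limma).

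The muscle genes with a known MCAT element or TEAD site had a median of the opposite sign to that of the targets. Of 5 tested genes, 0 passed by limma, 1 had an unadjusted p under 0.05 (9.09% of all genes), 4 were lower in si-SMaRT without overlap (20.4% of all genes), and the median log2 difference was −0.33. Tnnt2, cardiac troponin T, which immature skeletal muscle also expresses, was at 253 and 244 RPKM in si-SCR and at 165 and 143 RPKM in si-SMaRT. Its log2 difference was −0.69 (adjusted p = 0.378 by limma), and the −0.65 found with the GC trend removed passed (adjusted p = 0.0483 by limma). Acta1, skeletal actin, and Myh7, slow myosin, had log2 differences of −0.73 and −0.33 (adjusted p = 0.558 and 0.814 by limma). The summed level of the 6 muscle markers given above, which Acta1 dominates, was lower in both si-SMaRT samples too, while Myod1 was not. Of the SRF and MRTF factors and their target genes, many of them also mechanically regulated, 0 of 11 passed by limma, 0 had an unadjusted p under 0.05, 1 was higher and 4 lower without overlap, and the median was 0.08. The lowest p in this list belonged to the actin-binding Cnn1 (log2 difference −0.35), the cofactor Mkl2 (0.31) and Tpm1 (−0.25), with adjusted p of 0.822, 0.834 and 0.857 by limma.

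The relatives of the targets had differences in both directions, and Nov was not analysed. Of the 4 tested, 0 passed by limma, 3 had an unadjusted p under 0.05, and the median was 0.09. The CCN family members Wisp1, at 71.8 and 81.4 RPKM in si-SCR and 103 and 127 RPKM in si-SMaRT, and Wisp2, at 0.205 and 0.515 RPKM against 0.875 and 0.654 RPKM, were higher without overlap. Their log2 differences were 0.58 and 0.98 (adjusted p = 0.520 and 0.421 by limma). Wisp2 was near the floor, with 5 and 14 reads in si-SCR and 19 and 18 reads in si-SMaRT. Its log2 difference was 0.38 with a pseudocount of 1. The joined row of Ankrd23 and Ankrd39, of which Ankrd23 is a muscle ankyrin repeat gene like Ankrd1, was lower, at 11.1 and 9.90 RPKM in si-SCR and 5.65 and 4.03 RPKM in si-SMaRT. Its log2 difference of −1.12 had an adjusted p of 0.106 by limma, and voom called it (log2 difference −1.14, adjusted p = 0.0403). It could not be entered in the fit with the GC trend removed, as the joined row had no GC content.

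**Figure D4:**
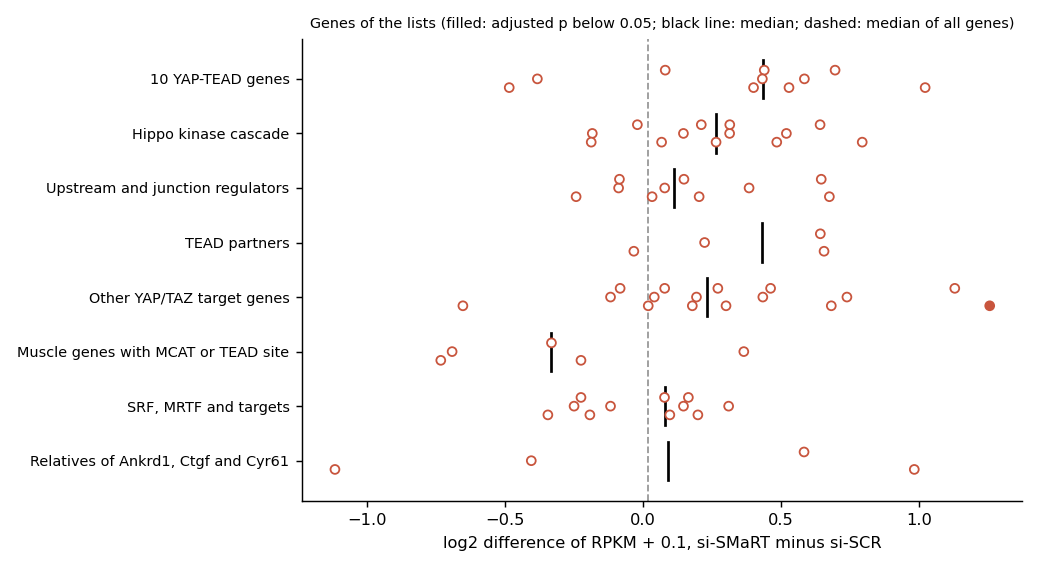
Log2 difference of RPKM + 0.1 between si-SMaRT and si-SCR for each tested gene (1 point a gene) of the 10 YAP-TEAD genes and the 7 lists, with the median of each as a black line and that of all genes as a dashed line at 0.02. The only filled point, with an adjusted p below 0.05, is F3 among the other YAP/TAZ target genes.

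Whether transcripts of the members were recovered together with lnc-SMaRT was read from the peaks of the pull-down libraries, on the build GRCm38. Of 345 peaks of the lnc-SMaRT pull-down, 1 lay on an exon of a member, on Ankrd1 (chromosome 19, 36116601 to 36117000, minus strand, with a deposited p-value of 0.000708). The LacZ pull-down, the control, held a peak at the same place of Ankrd1 (36116801 to 36117000, with a deposited p-value of 0.00673), among 336 peaks. The 2 peaks overlapped by the whole length of the LacZ peak, so Ankrd1 had a peak with both sets of probes. The LacZ pull-down also held a peak in an intron of Tead4 (chromosome 6, 128226401 to 128226600, minus strand, with a deposited p-value of 0.00483). The exons and introns of the other 8 members held no peak of either library. The peaks were called on 1 library each, so they have no replicate check.

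The differences of the members were compared over all settings of the analysis. The log2 difference of Cyr61 lay between 0.79 and 1.26, that of Ctgf between 0.46 and 0.94 and that of Amotl2 between 0.36 and 0.81 over 14 alternatives. Those of Ankrd1 (0.15 to 0.65), the row of Lats2 (0.32 to 0.54), Yap1 (0.24 to 0.63) and Tead1 (0.30 to 0.76) kept their sign as well. Tead2 (−0.75 to −0.22) and Tead4 (−0.57 to −0.19) were lower in each of them, and Wwtr1 was the member whose sign changed (−0.11 to 0.27).

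**Figure D5:**
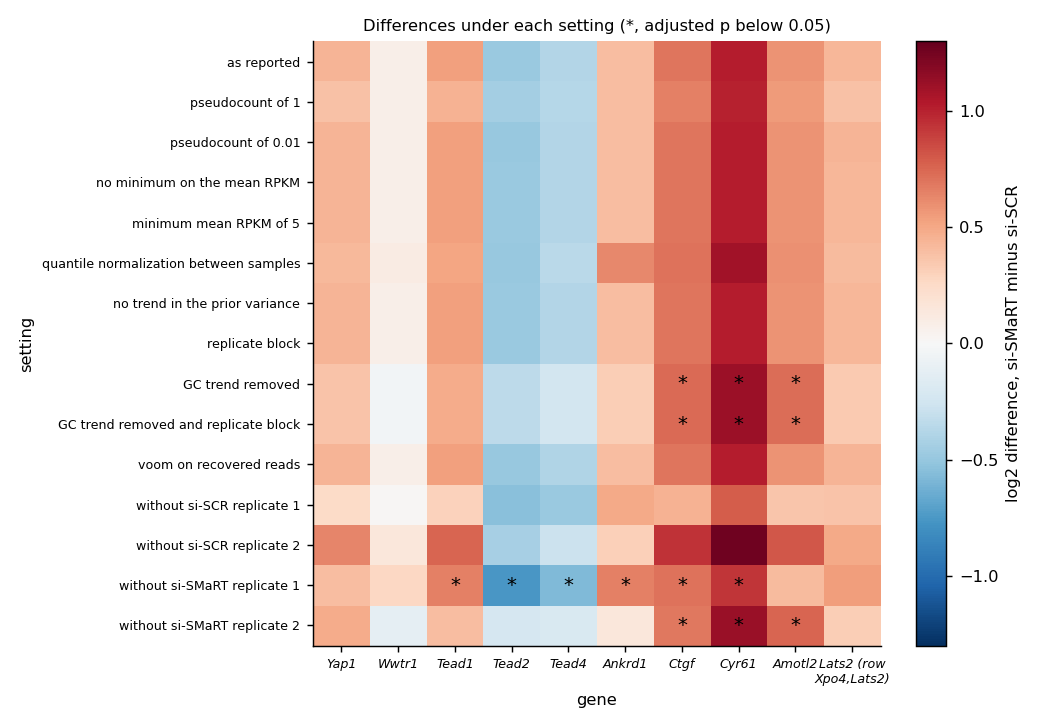
Log2 difference between si-SMaRT and si-SCR of each of the 10 genes (columns) under each setting of the analysis (lines), on a colour scale from blue (lower in si-SMaRT) to red (higher), with an asterisk where the adjusted p was below 0.05. Asterisks stand for Ctgf, Cyr61 and Amotl2 with the GC trend removed, and for 6 and 3 genes without si-SMaRT replicate 1 and without si-SMaRT replicate 2.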

How the data were processed

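The RPKM values were deposited by the authors, who trimmed reads with Trimmomatic, used Bowtie 2 to drop reads of rRNA and tRNA, mapped the others with TopHat2 (GRCm38, Ensembl 77), counted with htseq-count and scaled by TMM in edgeR after dropping genes of low CPM. The p-values of the pull-down peaks were also deposited by the authors, from Piranha. Its covariate was the input for the LacZ peaks, and the lnc-SMaRT list does not state whether it was the input or LacZ. The members and lists were chosen with earlier results of these data known. limma 3.58.1 in R 4.3.3 was fitted to log2(RPKM + 0.1) over all 11086 rows with a mean of at least 0.5 RPKM, with a prior variance that follows the mean and Benjamini-Hochberg adjustment over all rows. Fold changes on this scale understate those of low genes. The paper speaks of 2 independent cell populations for the RNA-Seq, and there were 2 samples per group. Whether each population received both siRNAs is not stated. Whole reads were recovered for 100% of rows within 0.001 reads, between 10956899 and 14280423 per sample. They are lower limits for rows whose length was not that of the gene model. GC content came from GENCODE M21 for 10849 tested rows, and its trend was removed by loess (span 0.3). Genes named were the members, from each list those past the threshold and the 3 of lowest p, and the 3 nearest profiles of Ankrd1, Ctgf and Cyr61. Other symbols are named where a list or marker is accounted for. Peaks were matched to GENCODE M21 exons on the same strand by at least 1 base. Python 3.11.15, pandas 2.3.3 and scipy 1.17.1 were used for the rest.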

Additional observations from a re-analysis of the deposited data

How the results depend on the processing

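Of the 10 genes, 0 passed the threshold with the deposited values, with other pseudocounts, other minimum levels, quantile normalization, no variance trend and voom, and 3 with the GC trend removed. Over all genes, 56 passed, and 37 with quantile normalization, 106 with voom and 477 with the GC trend removed. For the lists, the count was 1 with the deposited values, 0 with a pseudocount of 0.01, no minimum, quantile normalization or no variance trend, 2 with voom and 4 with the GC trend removed. When 1 sample was left out, between 24 and 2908 genes passed over all genes, between 0 and 6 of the 10 genes and between 0 and 17 genes of the lists. The lone sample of a group was then assumed to vary like the other group. The median log2 difference of the 5 targets, 0.59, lay between 0.46 and 0.81 over all alternatives. Wwtr1, at 0.08, was −0.032 with the GC trend removed, also under the replicate block, and between −0.11 and 0.27 when 1 sample was left out, the −0.11 without si-SMaRT 2. Of 140 values of single members under alternatives, 122 kept sign and side of the threshold, 15 passed it and 3 reversed. On the LacZ pull-down, 1 member held a peak on an exon and 2 on the whole gene body. The causes were not tested.

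On the deposited values, samples with the same replicate number did not deviate together (correlation −0.36 over 11086 genes). The difference of replicate 2 from replicate 1 followed GC content in opposite directions in the 2 groups (rho −0.85 in si-SMaRT, 0.36 in si-SCR). The correlation therefore cannot decide whether the numbers stand for a pairing. With the replicate block, 96 of all genes, 0 of the 10 genes and 0 genes of the lists passed. Under the replicate block with the GC trend removed, 334, 3 and 2 passed. With a crossed block, chosen after the data were seen, 487, 1 and 3 passed. With 2 samples per group, the 95% interval held 0 for 8 of the 10 genes on the deposited values and for 5 with the GC trend removed.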
